A study of Homo sapiens with 12 samples.

Results

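The genes described here build the common scaffold of a basement membrane. They are the collagen IV chains COL4A1 and COL4A2, the laminin chains LAMA4, LAMB1 and LAMC1, the nidogens NID1 and NID2, and HSPG2, which encodes perlecan. The 8 genes were chosen by symbol from 38716 gene symbols in the tables, and all 8 passed the filters on low counts in each comparison. They were followed in IMR90, a widely used normal human fibroblast line from fetal lung with a finite lifespan, either proliferating (Pro) or passaged until they stopped dividing, which is replicative senescence (Sen). Each state had 3 separately grown cultures, and each culture lysate, taken with cycloheximide present, was used for both Ribo-seq and RNA-seq, so there are 12 libraries, 3 in each of 4 groups. No drug, transgene or knockdown is named for any group, and all cultures were grown in the same serum-containing medium. The growth protocol lists 2 isolates and does not assign them to samples, and the deposited RNA-seq files of Pro carry a tag that resembles DMSO, a solvent the labels do not mention, so neither could be separated from the state.

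A basement membrane is a thin sheet of matrix on which epithelia, endothelia, muscle and fat cells rest. Laminin trimers of an α, a β and a γ chain polymerise on the cell surface, and a collagen IV network, assembled from trimers of α chains, forms the second layer. Nidogens bridge both networks and perlecan, a large heparan sulfate proteoglycan, binds to them and to growth factors. Fibroblasts secrete several of these components, and the α1 and α2 chains of collagen IV join in trimers of a pair of α1 chains with a single α2 chain.

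COL4A1 and COL4A2 are known to be transcribed from a shared bidirectional promoter. The genes lie head to head on chromosome 13, and in RefSeq (GRCh38.p14) their starts are 127 bases apart on opposite strands, with 126 bases between them. This stretch is printed because both chains start from it while their values below differ. It is followed by the stretches of the same length before the starts of HSPG2 and LAMA4, the members with the highest RPF and the lowest mRNA change. Each is written 5′ to 3′ toward the named gene. Capitals mark matches, on either strand, to the promoter boxes spelled CCAAT and GGGCGG, known as the CAAT and the GC box. The letters TATAAA were also searched.
COL4A1/COL4A2 (chr13:110307158-110307283, plus strand, toward COL4A2): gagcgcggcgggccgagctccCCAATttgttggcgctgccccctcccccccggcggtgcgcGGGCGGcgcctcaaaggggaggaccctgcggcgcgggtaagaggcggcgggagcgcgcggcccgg
HSPG2 (chr1:21937311-21937436, minus strand): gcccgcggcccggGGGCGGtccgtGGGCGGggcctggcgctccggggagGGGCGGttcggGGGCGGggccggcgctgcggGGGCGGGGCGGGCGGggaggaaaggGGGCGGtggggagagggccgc
LAMA4 (chr6:112254568-112254693, minus strand): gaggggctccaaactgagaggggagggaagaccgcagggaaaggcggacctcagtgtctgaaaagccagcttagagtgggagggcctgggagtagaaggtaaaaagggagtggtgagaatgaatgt
All 8 genes had a RefSeq promoter. The COL4A1/COL4A2 stretch held 80.2% G and C, the HSPG2 stretch 88.1% with 8 matches to GGGCGG, of which some overlap, and the LAMA4 stretch 55.6% with no match to any of these motifs, against a median of 59.5% over 27305 promoters. CCAAT was found before COL4A1, COL4A2 and NID2, and in 21.9% of all promoters over the same length. GGGCGG was found before COL4A1, COL4A2, LAMB1, NID2 and HSPG2, and in 34.6% of all. TATAAA was found before none of the 8 genes and in 6.23% of all. These are matches of letters and say nothing of which factor binds.

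RNA-seq reads over the 5′ UTR, coding sequence (CDS) and 3′ UTR of a gene are called its mRNA, and CDS reads in Ribo-seq, which sequences the stretch of mRNA that a ribosome shields from RNase, its ribosome-protected fragments (RPF). Levels are CPM, that is counts divided by a TMM-adjusted library size and multiplied to a common total. A gene was called changed at an adjusted p under 0.15 (edgeR quasi-likelihood test over all genes tested), the 15% false discovery rate of the published methods. RNA-seq libraries held from 7902427 to 14144455 reads. Ribo-seq libraries were uneven, with CDS reads of 54421, 685061 and 1718521 for Pro 1 to 3, compared with 1672807, 54708 and 583798 for Sen 1 to 3. Pro 1 and Sen 2 are therefore shallow, and their CDS reads made up 34.4% and 15.0% of all assigned reads, against 54.7% to 88.8% in the others. The state labels were checked first. CDKN1A, the cell cycle inhibitor p21, had log2 fold changes, Sen over Pro, of 1.60 in mRNA and 1.26 in RPF, LMNB1 (lamin B1) of -2.84 and -3.20, and the proliferation marker MKI67 of -2.30 and -2.75, and all 6 passed the test. All 10 fibroblast markers exceeded 1 CPM in every library. No epithelial marker of 8 did, and of 8 endothelial markers only the receptor gene TEK did, with CDH5 at 0 in RNA-seq.

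In mRNA, senescent cells held more of both collagen IV chains, of laminin γ1 and of perlecan, and less laminin α4 and less of both nidogens. COL4A1, COL4A2, LAMC1 and HSPG2 rose, LAMA4, NID1 and NID2 fell, and LAMB1 did not pass the test, which makes 7 of 8 called. The background was high, since 73.6% of 12787 genes tested were called in mRNA, 36.6% higher and 37% lower, so the share of members called is near that of all genes. The groups did not overlap for 5 of the 8, against 67.8% of all genes. The median change of the members was 0.22 on the log2 scale, against -0.01 over all genes. In these bulk libraries, fewer cells making a gene and less RNA per cell cannot be told apart.

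In RPF, fewer members were called, as was a smaller share of all genes. HSPG2 rose, LAMA4, NID1 and NID2 fell, and the collagen IV chains, LAMB1 and LAMC1 did not pass the test. The 4 of 8 called compare with 54.4% of 7521 genes tested, 27.5% higher and 26.9% lower. The share of members called is thus again near that of all genes. The groups did not overlap for NID1, NID2 and HSPG2, against 32.5% of all genes. The median of the members was -0.03, against -0.00326 over all genes. Translational efficiency (TE), the log2 ratio of RPF to mRNA within a lysate, was tested as the interaction of library type with state in 7473 genes. It called COL4A1 alone among the members, as lower. Over all genes 10% were called in TE, 6.32% higher and 3.73% lower, and the groups did not overlap for 16.2%. The plot of levels by library shows every value, and the plot of fold changes sets the measures beside each other.

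**Figure D1:**
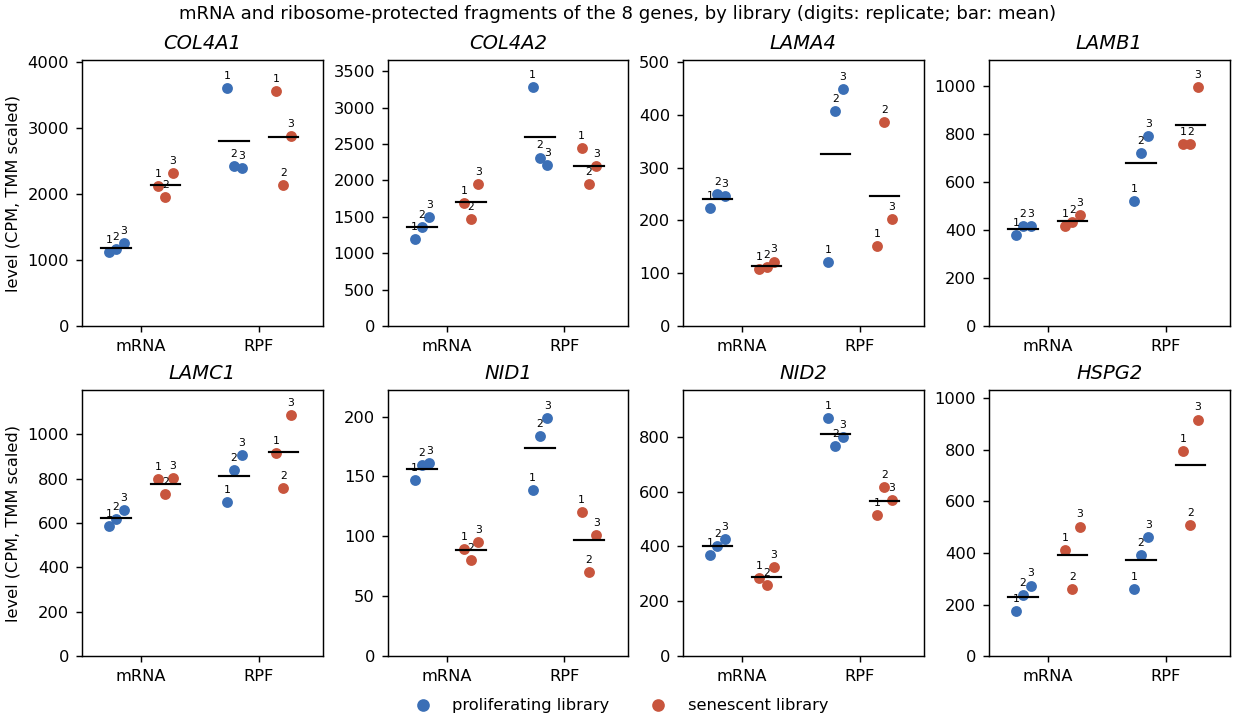
Level (CPM, linear axis from 0) of each of the 8 genes in 6 RNA-seq (mRNA) and 6 Ribo-seq (RPF) libraries. Points are libraries, digits their replicate numbers, blue Pro and red Sen, and bars the means of 3. The COL4A1 mRNA points of Sen lie between 1962 and 2324 CPM, above all Pro points, while the RPF points of both states mix.

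The collagen IV chains form the core of the network. COL4A1 (GRCh37 chr13:110801310-110959504, minus strand, 52 exons) encodes the α1 chain. Its mRNA stood at 1117, 1173 and 1253 CPM in Pro 1, 2 and 3 and at 2117, 1962 and 2324 CPM in Sen 1, 2 and 3. Every Sen library exceeded every Pro library. The mean rose from 1181 ± 68.6 to 2134 ± 181.8 CPM (SD, n = 3), a log2 fold change of 0.85 ± 0.08 (SE, adjusted p = 3.80e-09). Its RPF stood at 3609, 2432 and 2388 CPM in Pro and at 3565, 2145 and 2881 CPM in Sen. The highest values were those of Pro 1 and Sen 1, and the groups overlapped. The RPF change was 0.11 ± 0.19 (95% interval from -0.26 to 0.48, adjusted p = 0.645). Without both shallow lysates it was 0.43 (adjusted p = 0.00332). The shallow libraries Pro 1 and Sen 2 held 208 and 122 reads of the gene.

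COL4A2 (chr13:110958159-111165556, plus strand) encodes the α2 chain. Its annotated span overlaps that of COL4A1 by 1346 bases at the start. Its mRNA stood at 1200, 1363 and 1503 CPM in Pro and at 1691, 1475 and 1946 CPM in Sen. Sen 2 lay below Pro 3, so the groups overlapped. The change of 0.33 ± 0.09 (adjusted p = 0.00415) passed the test and was smaller than that of COL4A1, and without Sen 3 it was 0.21 (adjusted p = 0.0287). RPF stood at 3280, 2315 and 2208 CPM in Pro and at 2445, 1951 and 2201 CPM in Sen. Pro 1 was the highest and the other libraries lay close together. The RPF change was -0.17 ± 0.18 (interval from -0.53 to 0.18, adjusted p = 0.450). It passed as lower with library totals (-0.29, adjusted p = 0.0946) and at 10 counts or more in every library (-0.30, adjusted p = 0.130), and was 0.046 without both shallow lysates.

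Within a library, the ratio of both chains does not depend on depth or scaling. Reads per coding length gave a COL4A1 to COL4A2 ratio in mRNA of 0.955, 0.883 and 0.855 in Pro and of 1.28, 1.36 and 1.23 in Sen. The states did not overlap, and the shift was 0.53 on the log2 scale (exact two-sided permutation p = 0.1, the smallest that 3 against 3 libraries can give). With CDS reads alone the ratios were 0.991, 0.930 and 0.858 in Pro and 1.34, 1.39 and 1.28 in Sen. In RPF the ratio was 1.13, 1.08 and 1.11 in Pro and 1.50, 1.13 and 1.34 in Sen, with overlap (difference 0.25, exact permutation p = 0.2). Over the 12 ratios tested, 6 pairs in 2 measures, 7 were at the smallest p and the lowest Benjamini-Hochberg adjusted value was 0.171, so none passed 0.15.

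**Figure D2:**
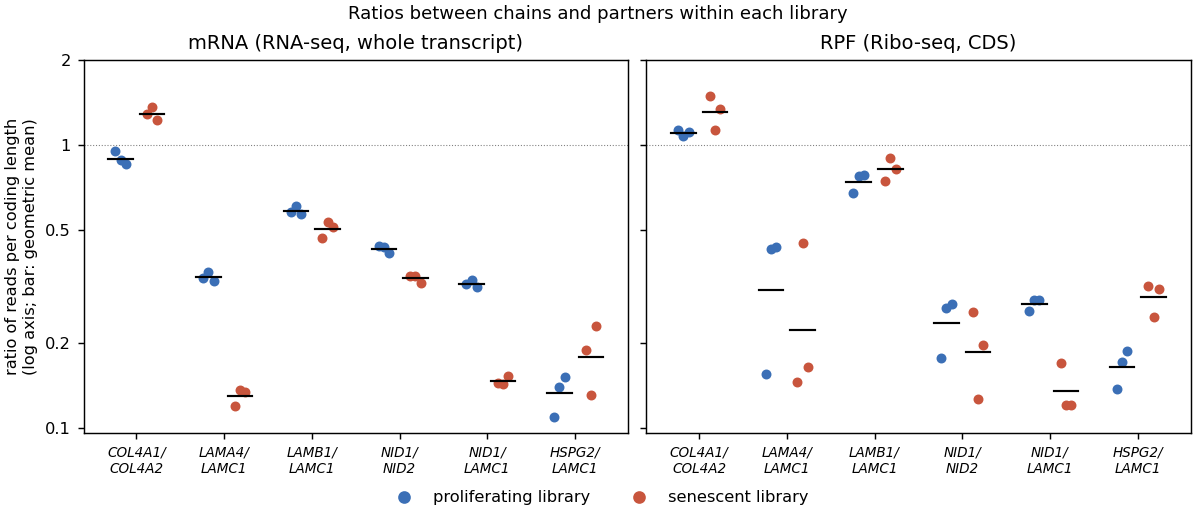
Ratio of reads per coding length (log axis) between partner genes within each library, in mRNA over the whole transcript (left) and in RPF (right). Points are libraries, blue Pro and red Sen, and bars geometric means of 3. The COL4A1 to COL4A2 ratio in mRNA lies below 1 in Pro and above 1 in Sen, and the LAMA4 to LAMC1 ratio in RPF splits by library within both states.

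Fewer ribosome footprints per mRNA were found on COL4A1 in senescent lysates. TE was 1.70, 1.05 and 0.93 in the Pro lysates 1 to 3 and 0.75, 0.13 and 0.31 in the Sen lysates 1 to 3 (log2 of RPF over mRNA in CPM). Every Sen lysate lay below every Pro lysate, and the means were 1.23 ± 0.41 and 0.40 ± 0.32 (SD, n = 3). The TE change was -0.71 ± 0.19 (adjusted p = 0.0175). Of 16 other settings, all kept the sign and 13 kept the call. It was lost with DESeq2 (-0.79, adjusted p = 0.172), with limma voom (-0.55, adjusted p = 0.427) and without Sen 3 (-0.69, adjusted p = 0.170). Without both shallow lysates it was -0.43 (adjusted p = 0.0664).

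COL4A2 stood on the other side of the threshold. Its TE was 1.45, 0.76 and 0.55 in Pro and 0.53, 0.41 and 0.18 in Sen, which do not overlap. The change was -0.46 ± 0.19 (adjusted p = 0.152). It passed under 4 of 16 other settings, 3 of them other ways of scaling, with adjusted p from 0.0467 to 0.732 over all of them. A difference in TE change between both chains was not tested.

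**Figure D3:**
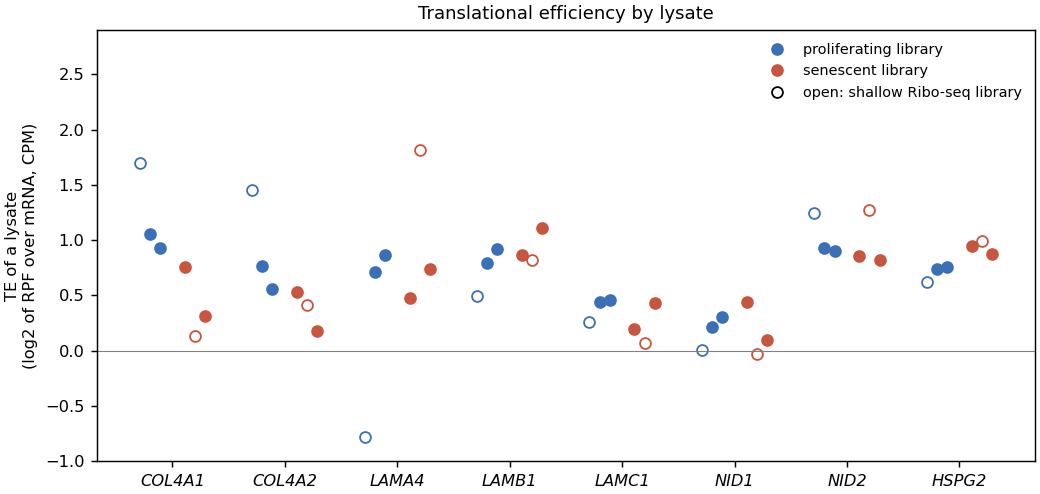
TE of each lysate (log2 of RPF over mRNA, both in CPM, 0.5 added to each count) for the 8 genes, blue Pro and red Sen. Open points are the lysates with shallow Ribo-seq, Pro 1 and Sen 2. Sen points lie below Pro points for COL4A1 and COL4A2 and above them for HSPG2, and LAMA4 has its lowest and highest values in the shallow lysates.

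Laminin α4, β1 and γ1 together make laminin-411, a trimer found in vessel walls and in mesenchymal tissue, and β1 and γ1 also pair with other α chains. LAMA4 (chr6:112429134-112576141, minus strand) had the largest fall among the members. Its mRNA stood at 224, 249 and 247 CPM in Pro and at 109, 112 and 122 CPM in Sen. The states were far apart, and the change was -1.07 ± 0.07 (adjusted p = 3.17e-11). Its RPF stood at 121, 407 and 450 CPM in Pro and at 151, 387 and 202 CPM in Sen. The shallow libraries crossed the states, with Pro 1 the lowest of all at 7 reads and Sen 2 close to the Pro libraries at 22 reads. The RPF change was -1.11 ± 0.19 (adjusted p = 1.30e-06) and -1.34 (adjusted p = 1.41e-07) without both shallow lysates. DESeq2 gave -0.50 (adjusted p = 0.752). TE differed by 0.06 ± 0.20 and the sign turned under 5 of 15 other settings.

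Laminin γ1 rose in mRNA, and the other changes of the β1 and γ1 chains did not pass the test. LAMB1 (chr7:107564244-107643658, minus strand) stood at 377, 416 and 418 CPM in Pro mRNA and at 416, 433 and 460 CPM in Sen mRNA, which overlap. The change was 0.11 ± 0.07 (interval from -0.04 to 0.26, adjusted p = 0.180). In RPF it stood at 521, 721 and 789 CPM in Pro and at 758, 756 and 993 CPM in Sen, a change of 0.24 ± 0.17 (adjusted p = 0.253). LAMC1 (chr1:182992555-183114727, plus strand) encodes the γ1 chain, which most laminins share. It stood at 586, 617 and 661 CPM in Pro mRNA and at 799, 729 and 805 CPM in Sen mRNA. Every Sen library exceeded every Pro library, and the rise was 0.32 ± 0.07 (adjusted p = 0.000577). Its footprints stood at 694, 837 and 909 CPM in Pro and at 916, 756 and 1085 CPM in Sen, a change of 0.18 ± 0.17 (adjusted p = 0.408). TE differed by 0.19 for LAMB1 and by -0.11 for LAMC1 (adjusted p = 0.775 for LAMC1), neither past the test.

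Ratios within a library set the chains of laminin-411 side by side. In mRNA, the LAMA4 to LAMC1 ratio per coding length was 0.338, 0.356 and 0.330 in Pro and 0.120, 0.136 and 0.134 in Sen, without overlap (-1.39 on the log2 scale, exact permutation p = 0.1). These mRNA reads include the UTRs, so their level is not directly comparable with RPF. With CDS reads alone the ratio was 0.427, 0.452 and 0.418 in Pro and 0.151, 0.183 and 0.171 in Sen. The LAMB1 to LAMC1 ratio differed by -0.21 (exact permutation p = 0.1) and, with CDS reads alone, the states overlapped (exact permutation p = 0.2). In RPF the LAMA4 to LAMC1 ratio was 0.154, 0.428 and 0.437 in Pro and 0.145, 0.452 and 0.165 in Sen (-0.47, exact permutation p = 0.7). Here Pro 1 sat with the Sen libraries and Sen 2 with the Pro libraries. Without both, the RPF shift was -1.48, and with 1 library left out it ran from -0.99 (without Sen 2) to -0.17 (without Sen 1).

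Both nidogens fell. NID1 (chr1:236139130-236228409, minus strand) encodes the nidogen that binds the laminin γ1 chain and collagen IV. Its mRNA stood at 147, 159 and 162 CPM in Pro and at 89.3, 80.6 and 95.5 CPM in Sen, without overlap (-0.82 ± 0.08, adjusted p = 4.67e-09). RPF was 139, 184 and 199 CPM in Pro and at 121, 70.3 and 101 CPM in Sen, again without overlap (-0.76 ± 0.17, adjusted p = 0.000236). The shallow libraries held 8 and 4 reads of NID1, and the change was -0.76 (adjusted p = 0.000418) without them. NID2 (chr14:52471527-52535777, minus strand), its paralogue, stood at 369, 402 and 428 CPM in Pro mRNA and at 285, 259 and 323 CPM in Sen mRNA (-0.47 ± 0.08, adjusted p = 3.55e-05). For RPF it was at 868, 767 and 800 CPM in Pro and at 516, 615 and 570 CPM in Sen (-0.54 ± 0.16, adjusted p = 0.00578). The groups did not overlap in either measure. Without Sen 1 the RPF change of NID2 was -0.44 and no longer passed (adjusted p = 0.192). TE differed by 0.08 for NID1 and -0.03 for NID2, neither past the test.

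The NID1 to LAMC1 ratio, between a nidogen and the chain that it binds, was 0.324, 0.333 and 0.315 in Pro mRNA and 0.144, 0.143 and 0.153 in Sen mRNA. In RPF it was 0.258, 0.283 and 0.283 in Pro and 0.170, 0.120 and 0.120 in Sen. The states did not overlap in either measure, with shifts of -1.14 and -1.03 on the log2 scale (exact permutation p = 0.1 each). The NID1 to NID2 ratio differed by -0.35 in mRNA (exact permutation p = 0.1) and by -0.34 in RPF, where the states overlapped (exact permutation p = 0.5). That RPF difference ran from -0.58 without Sen 1 to -0.06 without Sen 2.

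HSPG2 (chr1:22148737-22263803, minus strand, 97 exons) encodes the perlecan core protein and has the longest coding sequence of the 8 genes, 13173 bases. Its mRNA stood at 175, 235 and 274 CPM in Pro and at 413, 261 and 503 CPM in Sen. Sen 2 lay below Pro 3, so the groups overlapped, and the spread within Sen was the widest of the members relative to its mean (392 ± 122, SD, n = 3). The change was 0.78 ± 0.16 (adjusted p = 0.000194). Its RPF stood at 260, 392 and 462 CPM in Pro and at 795, 510 and 918 CPM in Sen. All Sen libraries exceeded all Pro libraries, a 1.94-fold rise (0.96 ± 0.17, adjusted p = 2.76e-06). The RPF call held in all 14 other settings, with values from 0.81 to 1.14. TE was 0.22 higher in Sen (adjusted p = 0.473). The HSPG2 to LAMC1 ratio in RPF was 0.137, 0.171 and 0.186 in Pro and 0.318, 0.247 and 0.310 in Sen, without overlap (exact permutation p = 0.1), while in mRNA the states overlapped (exact permutation p = 0.3).

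**Figure D4:**
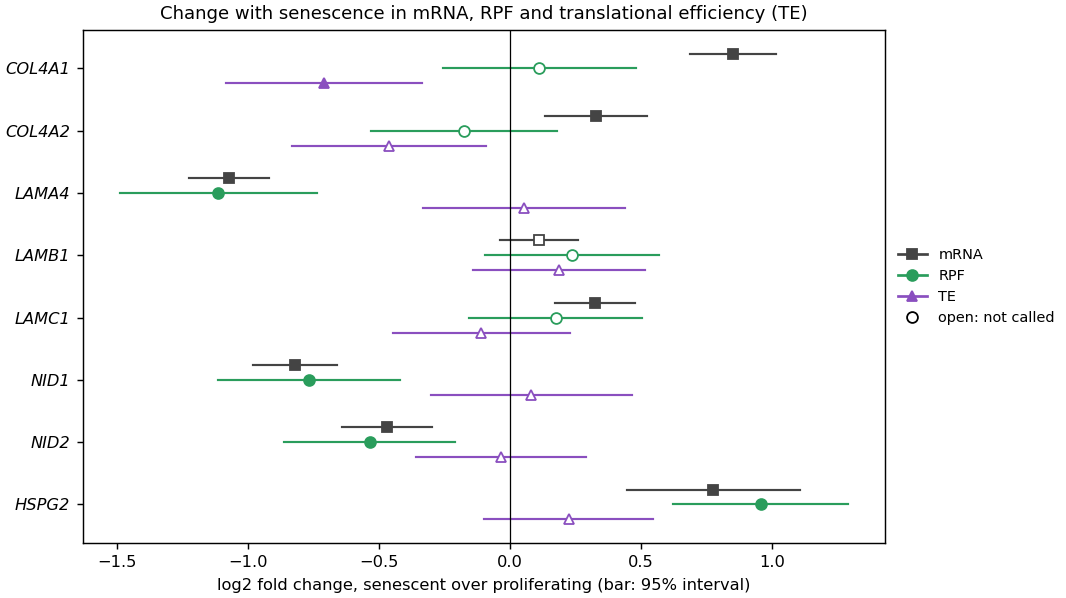
Log2 fold change, Sen over Pro, of each of the 8 genes in mRNA (squares), RPF (circles) and TE (triangles), from fits on 6, 6 and 12 libraries. Bars are 95% intervals and open symbols did not pass the test. COL4A1 has an mRNA change of 0.85, an RPF change of 0.11 and a TE change of -0.71, while mRNA and RPF changes of LAMA4, NID1, NID2 and HSPG2 lie close together.

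Levels are compared between genes per kilobase of coding sequence. In RPF, COL4A1 and COL4A2 led in both states, at 561 and 506 CPM per kb in Pro and at 572 and 428 CPM per kb in Sen, with overlapping ranges. In Pro they were followed by NID2 (197), LAMC1 (168), LAMB1 (126), LAMA4 (59.6), NID1 (46.5) and HSPG2 (28.2). Neighbours whose ranges over 3 libraries did not overlap were COL4A2 and NID2, LAMB1 and LAMA4, and NID1 and HSPG2. In Sen the order was LAMC1 (190), LAMB1 (156), NID2 (137), HSPG2 (56.2), LAMA4 (45.1) and NID1 (26.0) after the collagens. Thus NID2 moved from above LAMC1 and LAMB1 to below them, and HSPG2 from the last place to above LAMA4 and NID1. However, the ranges of NID2 and LAMC1 overlapped in Pro and those of NID2 and LAMB1 in Sen. Those of HSPG2 and LAMA4 overlapped in both states (19.8 to 35.1 and 22.2 to 82.2 CPM per kb in Pro). For CDS reads of RNA-seq, COL4A2 (343 CPM per kb) and COL4A1 (316) overlapped in Pro, whereas in Sen COL4A1 (574) stood above COL4A2 (431) without overlap. NID2 (140) stood above LAMB1 (115) in Pro and below it in Sen (102 against 126), both without overlap.

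Together the 8 genes took from 0.435% to 0.514% of RNA-seq reads in Pro and from 0.512% to 0.637% in Sen. In Ribo-seq they took from 0.792% to 1.01% of CDS reads in Pro and from 0.748% to 0.827% in Sen, and both collagens make up most of either sum.

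The rule summed the regions of a transcript, which are taken apart here. The share of mRNA reads in the 3′ UTR was 12.2% in Pro and 12.3% in Sen for COL4A1, 12.5% and 12.8% for COL4A2, 25.7% and 27.3% for LAMC1, and 32.6% and 31.9% for NID1. States overlapped for 7 of the 8 genes. The exception was LAMA4, with 2.96% ± 0.33 in Pro and 3.84% ± 0.10 in Sen (SD, n = 3, exact permutation p = 0.1, the smallest possible). The share of all genes without overlap was not taken for this measure, so the count cannot be set against it. With CDS reads alone in RNA-seq the same 4 genes rose and the same 3 fell. Footprints in the 5′ UTR were rare. COL4A2 had 2, 27 and 74 of them in Pro and 21, 0 and 2 in Sen, which is 1.05%, 1.70% and 1.96% of the footprints of the gene in Pro and 0.572%, 0% and 0.176% in Sen. LAMA4 had 1, 5 and 17 in Pro and 3, 0 and 0 in Sen. Both took a lower share in every Sen library than in any Pro library. A count of 0, in Sen 2 for both genes and also in Sen 3 for LAMA4, allows up to 3 reads, so the order of those libraries was not resolved at this depth. Over all genes, 5′ UTR footprints per 100 CDS footprints numbered 13.1, 3.92 and 2.90 in Pro and 5.33, 110 and 16.9 in Sen, with a single gene holding from 9.74% to 59.2% of them. These ratios were not tested, and the share of all genes whose states separate in this way was not taken.

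Some coding bases are shared with genes on the opposite strand, and the strand rule of the tables is not given in the sources used here. In the GENCODE annotation on GRCh37, exons of RTRAF cover 403 coding bases of NID2 (9.77%), exons of LDLRAD2 cover 584 of HSPG2 (4.43%), an lncRNA covers 206 of LAMA4 (3.77%), COL4A2-AS1 covers 81 of COL4A2 (1.58%) and DLD covers 70 of LAMB1 (1.31%). How reads there were split could not be told.

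Other genes of the basement membrane were taken from 4 lists chosen with earlier results of these data known. Of 27 other components, 19 were tested in mRNA, where 9 rose and 9 fell (median 0.15), and 13 in RPF, where 3 rose and 6 fell (median -0.29). Over all genes tested, 36.6% rose and 37% fell in mRNA, 27.5% and 26.9% in RPF, and 10% were called in TE. The largest fall was that of COL15A1, a collagen that anchors basement membranes to the interstitial matrix, which stood at 191, 214 and 193 CPM in Pro mRNA and at 34.6, 28.7 and 26.1 CPM in Sen mRNA (-2.75 ± 0.09) and fell by 2.77 on the log2 scale in RPF. LAMA2, the laminin α2 chain of muscle, fell by 1.61 in mRNA and 2.58 in RPF. The RPF value of LAMA2 rests on 1, 20 and 44 reads in Pro and 5, 0 and 4 in Sen. COL4A6 rose by 1.06 in mRNA from about 3 CPM. SPARC, a secreted protein that binds collagen IV, rose by 0.91 in mRNA and by 1.08 in RPF. TINAGL1 fell by 1.71 in mRNA at under 2 CPM in every library. None of the 13 components tested in TE passed in edgeR, DESeq2 or limma voom, and 2 (COL4A5 and AGRN) had an unadjusted p under 0.05 in edgeR.

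Receptors for these proteins went both ways. Of 16 listed, 15 were tested in mRNA, where 9 rose and 5 fell (median 0.49), and 15 in RPF, where 7 rose and 3 fell (median 0.21). The shares over all genes were 36.6% higher and 37% lower in mRNA, and 27.5% and 26.9% in RPF. Among the integrin α chains, ITGA6, which binds laminin, rose by 1.52 in mRNA and by 1.03 in RPF. ITGA2, which binds collagen, rose by 1.33 in mRNA and by 1.18 in RPF. The RPF call of ITGA6 was lost with DESeq2 (adjusted p = 0.172), and Sen 2, at 52.7 CPM, lay below every Pro library. The laminin-binding ITGA7 fell by 0.55 in mRNA (adjusted p = 0.00398) and its RPF change of -0.09 did not pass. ITGA1, a collagen receptor, rose by 0.51 in mRNA, with -0.03 in RPF (adjusted p = 0.898). MCAM, a receptor of laminin α4, changed by 1.07 in mRNA and by 1.64 in RPF. The laminin receptor BCAM fell by 1.25 and 1.10. The proteoglycan SDC1 fell by 1.68 in mRNA and 0.96 in RPF. Its RPF call was lost without Pro 3 (adjusted p = 0.268) and with DESeq2 (adjusted p = 0.551). The RPF states of SDC1 overlapped, on 1, 18 and 52 reads in Pro and 24, 1 and 6 in Sen. RPSA, a ribosomal protein also described as a laminin receptor, fell by 0.71 in mRNA and 0.47 in RPF. The RPF call of RPSA was lost without Pro 3 and without Sen 1, with adjusted p up to 0.553, and with DESeq2 (adjusted p = 0.505). In TE, SDC4 (0.52) and MCAM (0.56) passed as higher and ITGA1 (-0.44) as lower. For MCAM the plain mean of the lysate ratios went the other way, from -0.42 in Pro to -0.56 in Sen, and the states overlapped. DESeq2 did not call it (adjusted p = 0.971).

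Called genes for folding, export and crosslinking of collagen IV mostly rose. Of 21, 12 rose, 1 fell and 8 did not pass in mRNA (median 0.24). Of 18 tested in RPF, 13 rose and 5 did not pass (median 0.63). Over all genes, 36.6% rose and 37% fell in mRNA, and 27.5% and 26.9% in RPF. The prolyl 3-hydroxylase P3H2 stood at 163, 152 and 151 CPM in Pro mRNA and at 620, 642 and 577 CPM in Sen mRNA, a rise of 1.98, and rose by 2.07 in RPF. PLOD2, a lysyl hydroxylase, rose by 1.77 and 1.29, and P4HA2, a prolyl 4-hydroxylase subunit, by 1.47 and 1.54. The exception was SERPINH1 (HSP47), the collagen chaperone of the endoplasmic reticulum. Its mRNA fell from 1316, 1429 and 1443 CPM to 791, 734 and 742 CPM (-0.89 ± 0.07, adjusted p = 5.51e-10). Its RPF stood at 1822, 2038 and 2369 CPM in Pro and at 1714, 1776 and 1888 CPM in Sen (-0.24 ± 0.17, adjusted p = 0.269), and its TE rose by 0.70 ± 0.17 (adjusted p = 0.00947). The TE change of this chaperone thus had the opposite sign to that of COL4A1. Its TE call was lost without Pro 2 and without Sen 3 (adjusted p up to 0.253). PLOD3 (0.60), which hydroxylates lysine and attaches sugar to it, and COLGALT1 (0.50), which only attaches sugar, also passed as higher in TE.

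Of 23 genes for breakdown of the basement membrane and its inhibitors, 20 were tested in mRNA, where 14 rose and 3 fell (median 0.34). In RPF 13 were tested, where 7 rose and 1 fell (median 0.39). The shares over all genes were 36.6% higher and 37% lower in mRNA, and 27.5% and 26.9% in RPF. PLAT, the tissue plasminogen activator, stood at 189, 203 and 207 CPM in Pro mRNA and at 1161, 1064 and 1128 CPM in Sen mRNA, a rise of 2.48, and rose by 2.62 in RPF. MMP2, a gelatinase that cleaves collagen IV, fell by 0.85 in mRNA and by 0.54 in RPF. Its RPF call was lost without Pro 3 (adjusted p = 0.325) and with DESeq2 (adjusted p = 0.175). MMP3 rose from below 1 CPM to 3.62, 4.54 and 7.77 CPM in mRNA, and MMP10, with 0 to 2 reads a library in Pro, to 1.17, 1.91 and 2.29 CPM. The protease inhibitors differed. TIMP3 rose by 1.89 in mRNA and by 2.15 in RPF, and TIMP2 by 0.52 and 0.97, whereas TIMP1 fell by 0.22 in mRNA, with 0.07 in RPF, which did not pass. The protease ADAMTS1 fell by 0.18 in mRNA, and its RPF change of -0.05 did not pass. The ADAMTS1 call was lost without Pro 2, Pro 3, Sen 1 or Sen 2, each left out alone (adjusted p up to 0.295). In TE, BMP1 (0.59), a procollagen protease, and TIMP2 (0.46) passed as higher. Of the 8 genes named from these lists for a TE call, none kept it in all 6 fits that each left out 1 lysate, and only SERPINH1 kept it with DESeq2. Of 18 genes named from the lists by the same rule and called in RPF, 13 kept the call with DESeq2 and 15 in all 6 fits that left out 1 library.

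**Figure D5:**
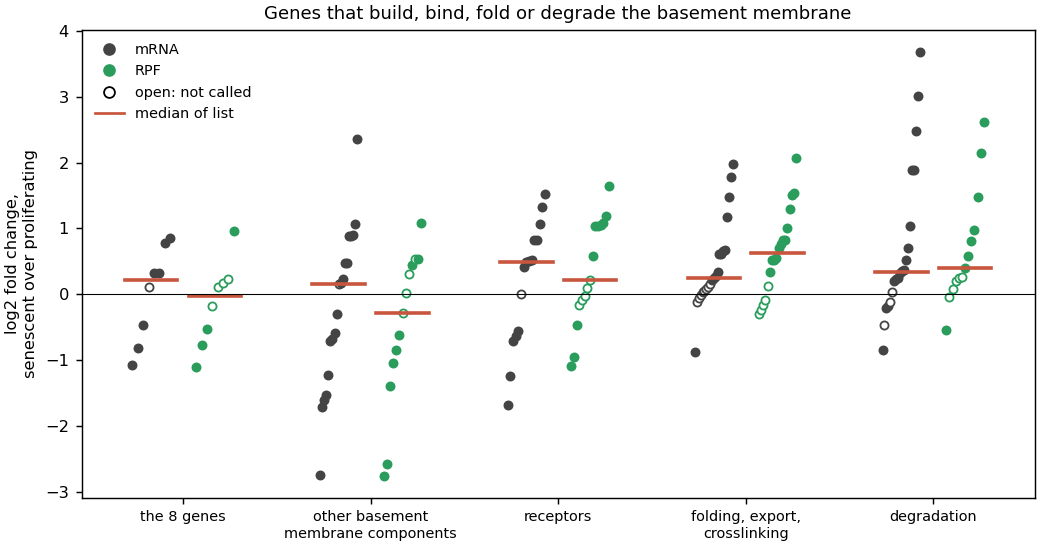
Log2 fold change, Sen over Pro, of the 8 genes and of the tested genes of 4 lists, in mRNA (grey) and RPF (green). Each point is a gene, open points did not pass the test and red lines are list medians. Genes of folding, export and crosslinking lie mostly above 0, with SERPINH1 lowest in mRNA at -0.89, while other components reach down to -2.75 (COL15A1) in mRNA.

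The gene whose values over the 12 libraries were most like the mean of COL4A1 and COL4A2 was COL5A1, a fibrillar collagen chain. Its Pearson r of 0.976 over 12 libraries (log2 CPM centred within each library type) was the highest of 1491 genes compared. These genes had at least 100 RPF counts on average. MIF (0.842), FAM98A (0.832), TPD52L2 (0.823) and SORT1 (0.821) followed. These libraries share lysates and scaling, so r is given as a description. COL5A1 changed by 0.86 in mRNA (adjusted p = 3.06e-08), by 0.28 in RPF (adjusted p = 0.207) and by -0.57 in TE (adjusted p = 0.0716), while the TE changes of the other 4 did not pass the test.

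Epithelial and immune markers were low. The summed mRNA of smooth muscle and pericyte markers exceeded that of the single gene NID1 in both states and that of LAMA4 in Sen only. In Sen the endothelial sum also reached the level of NID1. Summed mRNA of 8 endothelial markers ran from 56.4 to 63.5 CPM in Pro and from 94.9 to 106 CPM in Sen, nearly all of it TEK. Summed mRNA of 8 epithelial markers ran from 1.21 to 2.69 CPM in Pro and from 1.91 to 2.38 CPM in Sen, that of 6 immune markers from 19.3 to 21.4 CPM and from 31.8 to 34.7 CPM, with CD68 alone above 1 CPM throughout, that of 6 smooth muscle and pericyte markers from 186 to 204 CPM and from 156 to 213 CPM, and that of 10 fibroblast markers from 28512 to 32075 CPM and from 27066 to 30301 CPM. All 6 smooth muscle and pericyte markers exceeded 1 CPM in every RNA-seq library, and their summed RPF ran from 399 to 534 CPM in Pro and from 492 to 603 CPM in Sen. The part of such cells in the changes of the basement membrane genes was not tested.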

How the data were processed

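Ribo-seq and poly(A) RNA-seq of 3 Pro and 3 Sen lysates of IMR90 were analysed, grouped by the labels. The authors deposited, per library, an expected count of reads for each symbol in the 5′ UTR, CDS and 3′ UTR, without scaling to depth. Most values are whole, and from 12.1% to 22.7% of nonzero CDS values in Ribo-seq are not. The labels' processing notes list cutadapt 1.18, Bowtie 1.0.1, SAMtools 1.8 and DESeq2 1.22.2, with no role given. The genome build, annotation, strand rule and handling of reads with several placements are not given in the sources used here. Gene positions were therefore looked up by symbol in GENCODE on GRCh37, and promoter sequences come from RefSeq on GRCh38.p14. No coordinate of the files was used.

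Counts of 16451 symbols with a CDS read were summed over regions and rounded, although the planned tests had named plain counts. edgeR 4.0.16 (R 4.3.3) was used with filterByExpr, TMM factors within each library type and the two-sided quasi-likelihood test, with Benjamini-Hochberg adjustment over all genes tested. The mRNA and RPF fits used 6 libraries each. The TE fit used all 12, with lysate as a block, since RNA-seq was made from a part of each Ribo-seq lysate. Deviations of both libraries of a lysate from their group means correlated by -0.04 to 0.05 across genes. SE and 95% intervals come from the coefficient and its test statistic. Ribo-seq depth is uneven, and a floor of 3 counts marks what a count of 0 allows. Intervals include the spread between replicates as the fit estimated it, while floors cover counting error only. The code was tested on simulated data.

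DESeq2 1.42.0, limma 3.58.1 voom, other scalings and filters, CDS reads alone, a block on the replicate number and leaving out libraries were the alternatives. Replicates were separate libraries whose counts differed beyond sampling noise. Named genes were the 8 members, the 3 highest and 3 lowest mRNA changes among called genes of each list, up to 3 list genes called in TE, and the 5 most like the mean of COL4A1 and COL4A2. One gene that this rule picks is not reported here. Members and lists were chosen with earlier results of these data known, so no p was adjusted over a list alone. COL4A5, AGRN, ITGA7, TIMP3, TEK, CDH5 and CD68 were named after their values were seen.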

Additional observations from a re-analysis of the deposited data

How the results depend on the processing

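The count of 7 members changed in mRNA was the same, with 4 higher and 3 lower, under all 16 alternatives. The 4 members changed in RPF ranged from 3 to 5, and from 3 to 4 when 1 library was left out. The single member changed in TE became 0 with DESeq2 and with limma voom and 2, COL4A1 and COL4A2, with RLE factors, library totals, TMM over all 12 libraries or at least 10 counts in every library, and ran from 0 to 1 when 1 lysate was left out. At 10 counts in every library LAMA4 and NID1 dropped out of RPF and TE. Signs of fold changes turned, in changes that had not passed the test, as follows. The COL4A1 RPF change was -0.012 at 10 counts and ran from -0.080 (without Sen 1; -0.0053 without Pro 2) to 0.28 with 1 library left out, and that of COL4A2 was 0.046 without both shallow lysates. The LAMA4 TE change was -0.031 with library totals and -0.20 without both shallow lysates, and ran from -0.13 (without Pro 1) to 0.34 (-0.088 without Sen 2). The NID1 TE change ran from -0.16 (without Sen 1; -0.0070 without Pro 1) to 0.17 and that of NID2 from -0.093 to 0.0061 (without Sen 3; 0.00025 without Sen 1).

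The labels do not say whether same-numbered Pro and Sen libraries share more than a number. Their deviations correlated by -0.09 to 0.11 in mRNA and 0.01 to 0.02 in RPF. Both libraries of a lysate, which are paired, gave -0.04 to 0.05, so these correlations cannot tell paired from unpaired libraries. With the replicate block, 7 members were called in mRNA and 4 in RPF, and the LAMA4 RPF change was -0.61 (adjusted p = 0.0404). With no replicate block, that is no lysate block, 1 member was called in TE, LAMA4 was at -0.080, and list calls in TE were 7 for folding, export and crosslinking (main 4) and 1 for other components (main 0).

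Among list counts, DESeq2 called 4 other components, 5 receptors and 5 degradation genes in RPF, against 9, 10 and 8, and 0 receptors, 1 folding gene and 0 degradation genes in TE. Library totals called 1 other component in TE. With 1 lysate left out, TE counts ran from 0 to 5 for receptors and for folding, from 0 to 3 for degradation and from 0 to 1 for other components, and receptors in RPF from 6 (without Pro 3) to 11. Among ratios, NID1 to LAMC1 in mRNA was -1.09 with CDS reads alone, and without both shallow lysates LAMA4 to LAMC1 in RPF was -1.48 and LAMB1 to LAMC1 0.0087. Library totals moved the median of all genes to -0.11 in mRNA and -0.14 in RPF and the share of calls that were higher from 49.8% to 40.4% and from 50.5% to 39.1%, and in TE from 62.8% to 44.1% (52.4% with RLE factors). With 1 library left out, differences in 3′ UTR share crossed 0 for COL4A1 (-1.28 to 0.76 points), COL4A2 (-0.34 to 0.78) and LAMB1 (-0.017 to 0.005). Those of NID1 (-2.13 to 1.16) and HSPG2 (-1.76 to 1.04) crossed it too. Of all values, 331 single-gene ones kept sign and call. Another 259, such as counts and ratios, were judged by closeness to the main value, not by side, and stayed close. The cause of the shifts in this section was not tested.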
